A study of Caenorhabditis elegans with 4 samples.

Results

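The 7 genes described here are 6 small heat shock protein genes of Caenorhabditis elegans (hsp-16.2, hsp-16.41, hsp-16.11, hsp-16.49, sip-1 and hsp-43) and T12G3.1, now named sqst-1, the worm gene of the autophagy receptor p62. They were picked by name from 302 distinct gene names in 4 deposited tables of RNA-seq values, and all 7 were found. RNA came from whole young adults of 2 strains grown on the bacterial food OP50. N2 is the standard wild type, and VZ1 is known as a strain with a deletion in trx-1, a thioredoxin gene expressed in a pair of sensory neurons. Each strain was either left unstressed or stressed, for which the animals spent 5 h in 10 mM NaAs (sodium arsenite), and this gives 4 groups. Each group has 1 library, so no difference below has a replicate check. The labels give the strain names without alleles, and trx-1 is in none of the tables, which leaves no level that could check the strain labels.

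Small heat shock proteins are chaperones built around an alpha-crystallin domain that bind unfolding proteins without using ATP and keep them from aggregating. The hsp-16 genes are the classic stress-inducible members in the worm, nearly silent in healthy animals and switched on by the heat shock factor HSF-1. Arsenite reacts with thiol groups of proteins and thereby disturbs their folding. SIP-1 is known as a small heat shock protein of oocytes and embryos, and HSP-43 has been described in cells of the vulva and spermatheca. p62 binds ubiquitin-tagged cargo and carries it to autophagosomes, so it takes part in clearing the protein aggregates that chaperones fail to prevent.

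The unit is FPKM, fragments scaled to exon length and to the mapped fragments of a library, so levels of different genes can be set side by side. The tables compare stressed with unstressed N2, stressed with unstressed VZ1, and VZ1 with N2 without and with stress. They list only genes that passed the authors' test of 2 libraries. A gene absent from a table either had a p-value above the largest one listed (0.0005 for stress in N2, 0.00035 for stress in VZ1, 0.0002 between unstressed strains and 0.00025 between stressed strains) or was not tested. "Rose", "higher" and "lower" below mean that the authors' table lists the gene.

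The genes were grouped here with their listing known, so the counts that follow describe where each group was listed. All 4 rows labelled as hsp-16 genes rose with arsenite in N2, where the authors listed 0.799% of the genes tested as higher. In VZ1 2 of the 4 rose, and T12G3.1 rose as well, against 0.61% of the genes tested. sip-1 and hsp-43 appeared in neither stress table. Both were lower in unstressed VZ1 than in unstressed N2, against 0.416% of the genes tested. The row of hsp-43 also covers another gene, C14F11.4. None of the 7 was listed between the stressed strains, where 0.508% of the genes tested were listed in either direction. No gene of the 7 was listed both for a stress response and for a difference between strains. The share of all genes tested that were listed for both was not counted. The grouping also used these listings, so this is not a result about the 7.

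**Figure D1:**
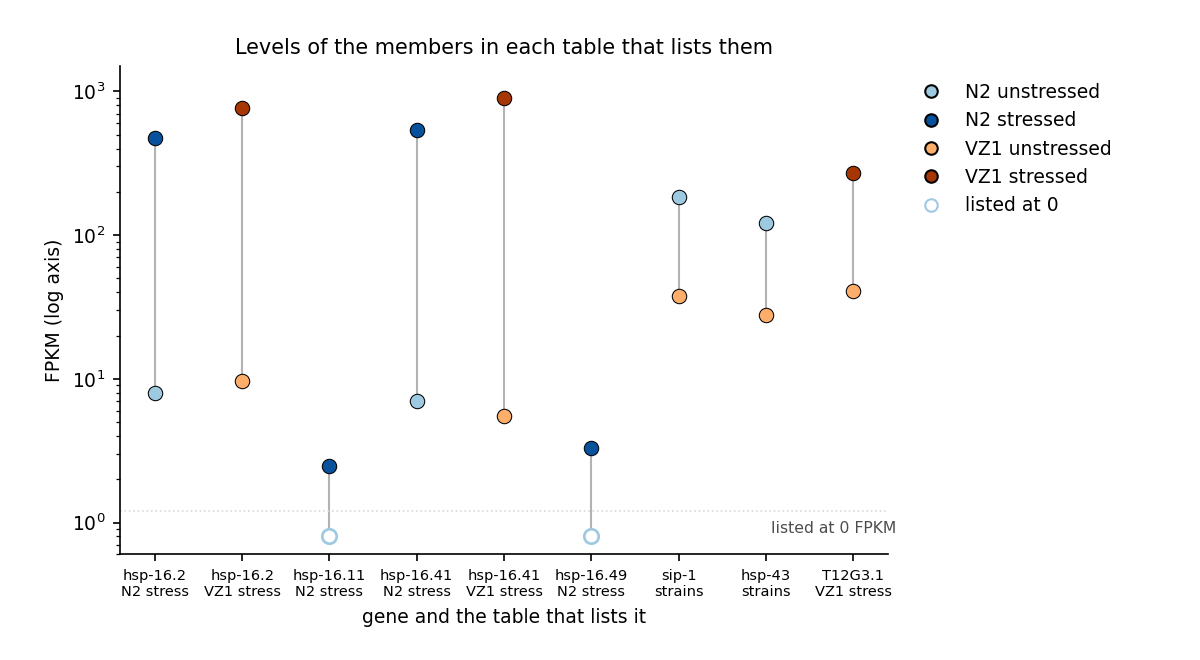
FPKM (log axis) of each of the 7 genes in each table that lists it, with 1 point per library, a line joining the libraries compared, and open points for values listed at 0. The hsp-16.2 and hsp-16.41 points lie below 10 FPKM without stress and between 474 and 898 FPKM with it. sip-1 and the hsp-43 row, which also covers C14F11.4, stand above 100 FPKM in unstressed N2 and below 40 FPKM in unstressed VZ1.

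hsp-16.2 and hsp-16.41 are neighbours on chromosome V. In the ce10 build used by the tables, hsp-16.2 occupies chrV:1804441-1804924 and hsp-16.41 chrV:1805271-1805760, so 346 bp lie between the rows. The WBcel235 annotation places hsp-16.2 on the minus strand and hsp-16.41 on the plus strand, which means that they are transcribed away from a shared upstream stretch. Each has 2 exons and 1 intron, of 46 bp in hsp-16.2 and 58 bp in hsp-16.41, and they encode 145 and 143 amino acids.

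hsp-16.41 stood at 6.97 FPKM in unstressed N2, 536 FPKM in stressed N2, 5.52 FPKM in unstressed VZ1 and 898 FPKM in stressed VZ1. Both unstressed libraries were low and both stressed libraries high, without overlap. The rise was 76.9-fold (log2 6.26) in N2 and 162.6-fold (log2 7.35) in VZ1. In the authors' deposited tables the q-value was 0.00735 in N2 and 0.0111 in VZ1, the smallest that each table holds. Most listed rows share it, 98 of 151 in N2 and 65 of 106 in VZ1, so it does not single out hsp-16.41. By size of rise hsp-16.41 ranked 9th of 101 genes in N2 and 3rd of 76 in VZ1, counting genes that rose from a value above 0.

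hsp-16.2 stood at 7.97 FPKM in unstressed N2, 474 FPKM in stressed N2, 9.65 FPKM in unstressed VZ1 and 769 FPKM in stressed VZ1. Its libraries were ordered by treatment in the same way. The rise was 59.5-fold (log2 5.89) in N2 and 79.7-fold (log2 6.32) in VZ1, 13th of 101 and 9th of 76 genes. The authors' deposited tables give it the same q-values as its neighbour.

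The order of the pair turned with stress in both strains. The ratio of hsp-16.41 to hsp-16.2 within a library, which does not depend on library scaling, was 0.876 in unstressed N2 and 0.573 in unstressed VZ1. Under arsenite it was 1.13 in N2 and 1.17 in VZ1. The stressed ratios lay close together, and the unstressed ratios, formed from levels below 10 FPKM, lay further apart. With no replicates, the spread of these ratios is unknown.

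In stressed animals the level of hsp-16.41 was 1.68 times and that of hsp-16.2 1.62 times as high in VZ1 as in N2, when values from the separate stress tables are set side by side. The same ratio over the 73 genes with values above 0 in both stress tables had a median of 1.18 and quartiles of 1.03 and 1.4998, and it ranked hsp-16.41 13th and hsp-16.2 15th from the top. Of the 73, 45 had the same row coordinates in both tables, hsp-16.41 and hsp-16.2 included. For the others the ratio compares rows of different extent, which limits these ranks and quartiles. In log2 units the strain difference was 0.75 for hsp-16.41 and 0.70 for hsp-16.2. The table of stressed strains lists neither gene. In 14 of its rows the higher library lay within 2-fold of the stressed N2 level of hsp-16.41. The smallest difference among these was a log2 of 1.995. Within 2-fold of its stressed VZ1 level it was 1.67, over 17 rows. Scaling between the tables could be checked only in N2, at 7 loci for the unstressed library (strain table over stress table, median ratio 0.979, range 0.932 to 0.98) and at 4 for the stressed one (median 1.0102), and at none in VZ1.

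Without stress the pair lay on opposite sides of equality between the strains, again across tables. The VZ1 level was 0.792 times the N2 level for hsp-16.41 and 1.21 times for hsp-16.2, where the 73 genes had a median of 1.06 with quartiles of 0.843 and 1.38. hsp-16.2 lay between these quartiles and hsp-16.41 below them. The log2 rise in VZ1 exceeded that in N2 by 1.08 for hsp-16.41 and by 0.42 for hsp-16.2. Among the 73 genes this difference had quartiles of −0.29 and 0.50 and a maximum of 1.08. The maximum is hsp-16.41 itself, while hsp-16.2 ranked 25th. The value for hsp-16.41 draws on low unstressed levels, 6.97 FPKM in N2 and 5.52 FPKM in VZ1, set across tables. By the ratio of stressed levels alone hsp-16.41 ranked 13th. The 73 include genes that fell in both strains, such as R08E5.3, for which a negative difference means a stronger fall in VZ1. The difference between the strains' responses was not tested, and no replicate shows how far such values scatter.

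**Figure D2:**
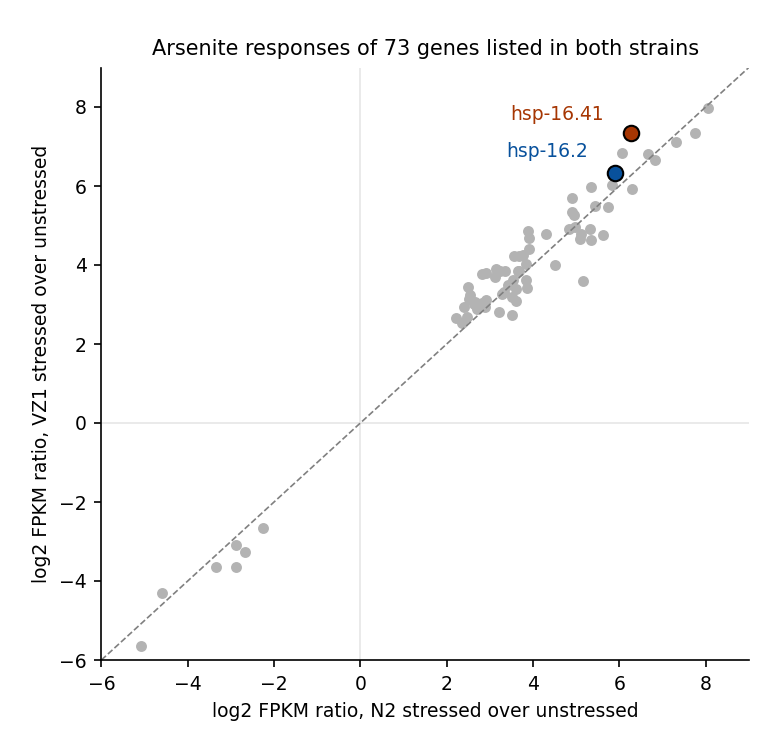
Log2 ratio of stressed over unstressed FPKM in N2 (horizontal) and VZ1 (vertical) for the 73 genes with values above 0 in both stress tables, 1 point per gene. The dashed line marks equal responses, and hsp-16.41 lies 1.08 above it and hsp-16.2 0.42 above it.

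A glutathione S-transferase gene, of a family of detoxification enzymes, was nearest to each of the pair in size of response. Likeness was measured as the distance between the 2 log2 stress ratios, over 72 other genes and 4 libraries. Other gst genes were among the 72, such as gst-38, gst-35 and gst-6, so a gst neighbour is not a result about the family. Nearest to hsp-16.2 was gst-12, at 8.03 and 481 FPKM in N2 and 8.19 and 689.7 FPKM in VZ1 without and with stress, a distance of 0.080. gst-16 (distance 0.29) and gst-4 (0.54) followed. Nearest to hsp-16.41 were gst-4 (0.55), F55G11.2 (0.66) and Y52E8A.3 (0.89), so no gene matched it as closely as gst-12 matched hsp-16.2.

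The other hsp-16 rows were weak and listed in N2 only. Many rows were listed in 1 strain only, as 74 pairs shared a gene between the 151 rows for stress in N2 and the 106 in VZ1. The row labelled hsp-16.49 (chrV:9088107-9088593) was listed at 0 in unstressed N2 and at 3.32 FPKM in stressed N2, and the row labelled hsp-16.11 (chrV:9087269-9087758) at 0 and 2.47 FPKM. Both therefore rose from a value listed at 0, which gives no fold. In the authors' deposited table their q-values were 0.00735 and 0.025. The stressed levels were far below the 474 and 536 FPKM of the other pair, 7.28 Mb away on the same chromosome. The VZ1 stress table lists neither row, which gives no value for them in that strain and does not show that they failed to respond there.

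The order and spacing of these rows differ from those of the genes they are named for in the current annotation. In WBcel235 the cluster holds 4 genes in the order hsp-16.1, hsp-16.48, hsp-16.49 and hsp-16.11, on the minus, plus, minus and plus strands. hsp-16.49 comes before hsp-16.11 there, with starts 797 bp apart. The row labelled hsp-16.11 comes first in the table, and its start lies 838 bp before that of the row labelled hsp-16.49. Coordinates were not converted between the builds, and only order, spacing and widths were compared. A spacing of 838 bp occurs in the annotated cluster once, between hsp-16.1 and hsp-16.48. The row widths of 490 and 487 bp equal the annotated lengths of hsp-16.1 and hsp-16.48. hsp-16.49 is annotated at 487 bp too, so that width fits its own label as well, whereas hsp-16.11 is annotated at 528 bp. The Ensembl annotation gives hsp-16.11 the symbol of hsp-16.1 and hsp-16.49 the symbol of hsp-16.48, as duplicate copies. Reads from such copies can be split or dropped by the authors' assignment, so the values of 2.47 and 3.32 FPKM are uncertain as levels of single genes, and the rows are named here by their labels.

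**Figure D3:**
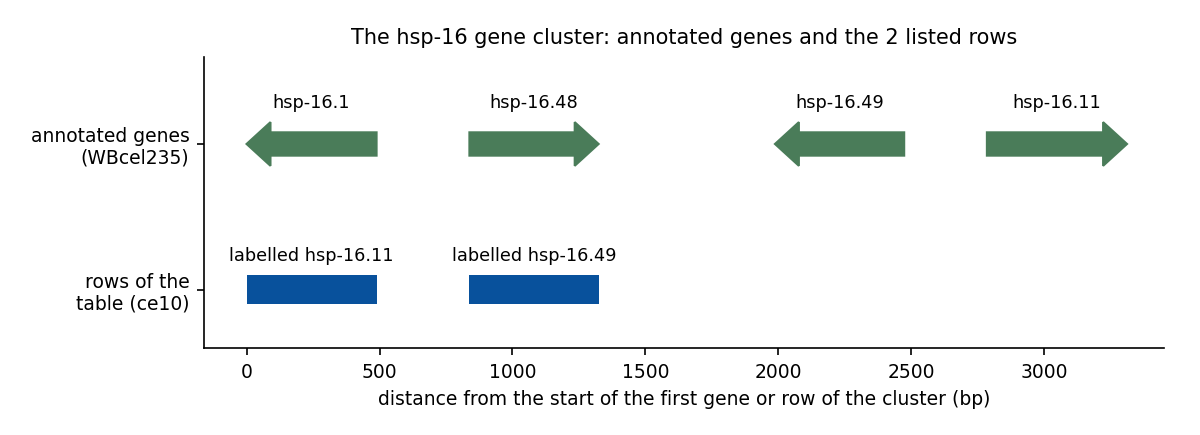
Distance in bp from the start of hsp-16.1 for the 4 genes annotated in WBcel235 (arrows, pointing in the direction of transcription). The rows that the N2 stress table labels hsp-16.11 and hsp-16.49 (bars, in ce10) are drawn from the start of the first row. That row was set at 0, so its position under hsp-16.1 is a choice of drawing. The widths of 490 and 487 bp and the spacing of 838 bp equal those of hsp-16.1 and hsp-16.48.

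sip-1 and hsp-43 differed between strains without stress. sip-1 (chrIII:10506057-10506710) stood at 184.6 FPKM in unstressed N2 and 37.6 FPKM in unstressed VZ1. The level in VZ1 was 4.91-fold lower (log2 −2.30, q = 0.0141 in the authors' deposited table). In WBcel235 it has 2 exons on the minus strand and encodes 159 amino acids. No table gives its level in stressed animals.

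hsp-43 stood at 122 FPKM in unstressed N2 and 27.9 FPKM in unstressed VZ1, 4.38-fold lower (log2 −2.13, with the same q-value). Its row (chrX:6230857-6235913) is 5057 bp wide and also covers C14F11.4, a protein-coding gene of 2143 bp whose annotated end lies 102 bp from hsp-43 in WBcel235. hsp-43 itself is annotated at 2393 bp, with 7 exons and 393 amino acids, the longest of the 6 small heat shock proteins here. The row holds 1 value per library for both genes, so the share of hsp-43 in the difference cannot be told from the table.

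Both rows, that of hsp-43 being shared with C14F11.4, were among the smaller differences of their table. Of the 58 genes that were lower in VZ1 with values above 0, sip-1 ranked 49th and hsp-43 54th by size, and the median log2 ratio of the lower genes was −3.11. Nearest to sip-1 in log2 ratio, over 60 other rows and 2 libraries, were C05E7.2 (−2.34), the collagen gene col-77 (−2.24) and R12E2.7 (−2.35). Nearest to hsp-43 were R12E2.14 (−2.13) and the collagen genes col-58 (−2.12) and col-145 (−2.12). These are likenesses of 1 ratio each.

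A pair of oocyte and eggshell genes was lower together with sip-1. Of a list of 20 oocyte, eggshell and embryo genes, 2 were lower in unstressed VZ1 and none higher, where the share of 0.416% of all genes tested that were lower corresponds to fewer than 1 of 20. The list was chosen with earlier results of these data known, so this count is a description and not a test of the list. puf-5, an RNA-binding protein gene of oocytes, had 35.9 FPKM in unstressed N2 against 7.002 FPKM in unstressed VZ1. The eggshell gene cpg-2 stood at 126 and 30.2 FPKM. Their log2 ratios of −2.36 and −2.06 enclose that of sip-1. The remaining 18 were not listed. The part of oocytes and embryos in the sip-1 difference was not tested. In RNA from whole animals, fewer oocytes or embryos and less RNA per cell cannot be told apart. None of the 20 was listed in the other 3 tables. Of 8 genes of the vulva, spermatheca and uterus, the region where HSP-43 has been described, none was listed in any table. The shares of all genes tested that the tables list correspond to 0.035 to 0.084 of 8 genes per table, so this count says nothing about these genes.

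**Figure D4:**
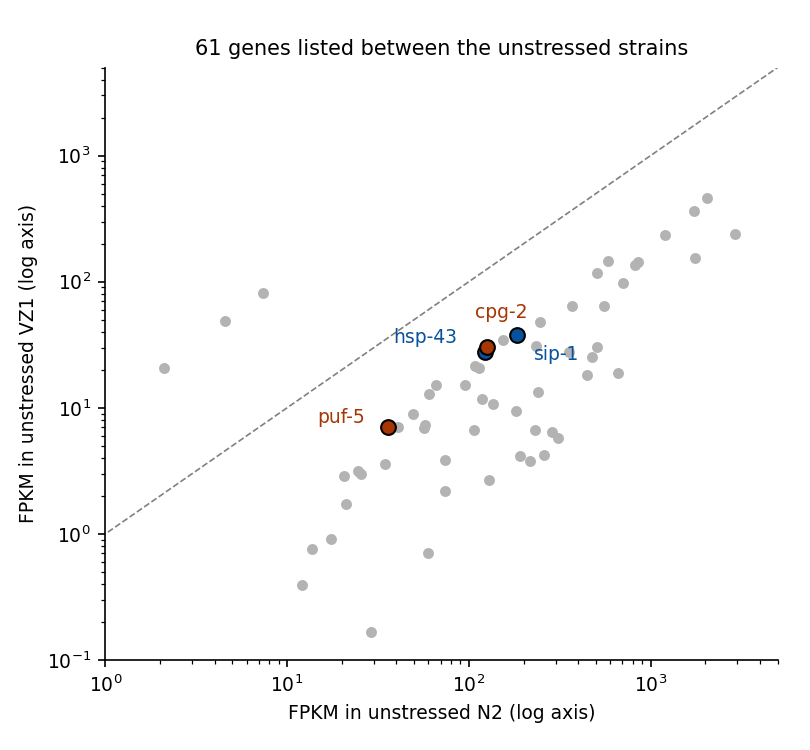
FPKM in unstressed N2 (horizontal) and unstressed VZ1 (vertical), both on log axes, for the 61 rows of that table with values above 0, 1 point per row. sip-1, hsp-43, puf-5 and cpg-2 lie below the dashed line of equal levels, with log2 ratios between −2.36 and −2.06.

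Without stress, sip-1 and the hsp-43 row stood at higher levels than the hsp-16 pair in both strains. That row also covers C14F11.4, so the level of hsp-43 alone is unknown. In unstressed N2 sip-1 (184.6 FPKM) and the hsp-43 row (122 FPKM) were above hsp-16.2 (7.97 FPKM) and hsp-16.41 (6.97 FPKM), across the strain and stress tables. In unstressed VZ1 the order was the same with a smaller distance, at 37.6, 27.9, 9.65 and 5.52 FPKM. The log2 ratio of unstressed VZ1 to unstressed N2 was 0.28 for hsp-16.2 and −0.34 for hsp-16.41, set across tables. It was −2.30 for sip-1 and −2.13 for the hsp-43 row. A stress response of sip-1 or hsp-43 can only be set beside the smallest change listed in rows that reach such levels. Rows were taken where the higher of the 2 libraries lay within 2-fold of the unstressed N2 level of sip-1. Their smallest change was a log2 of 2.08 over 44 rows in N2 and 2.49 over 29 rows in VZ1. They include genes that rose from far lower levels, such as gst-16. The unstressed VZ1 level of sip-1, 37.6 FPKM, lies below that band. These values come from listed rows only and are not limits of detection, so smaller or larger changes could be present and not listed.

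T12G3.1 was the only one of the 7 listed for stress in VZ1 alone. Listing in 1 strain only was common. Between the 106 rows for stress in VZ1 and the 151 in N2, 74 pairs of rows shared a gene. The T12G3.1 row (chrIV:12034253-12036691) stood at 40.8 FPKM in unstressed VZ1 and 269.8 FPKM in stressed VZ1, a 6.61-fold rise (log2 2.72, q = 0.0111 in the authors' deposited table). In WBcel235 it lies on the plus strand and encodes up to 693 amino acids in 3 exons. The rise was a small one in that table, 70th of 76, where the median log2 rise was 3.84. Nearest in size were ugt-13, a UDP-glucuronosyltransferase gene (log2 2.74, from 21.9 to 146 FPKM), cbl-1 (2.69) and R05H10.1 (2.68), over 86 other rows and 2 libraries.

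The tables give no level of T12G3.1 in N2. Its absence from the N2 stress table does not show a difference between strains, since the difference itself was not tested. In 46 of the rows for stress in N2 the higher library lay within 2-fold of the stressed VZ1 level of T12G3.1. The smallest log2 change among them is 2.08, below the 2.72 seen in VZ1. That smallest change comes from listed rows only and is not a limit of detection. With the N2 level unknown, it cannot show whether a rise like that in VZ1 would have been listed in N2. Between the stressed strains, where T12G3.1 was also not listed, the smallest listed difference at such levels was a log2 of 1.995 over 20 rows.

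**Figure D5:**
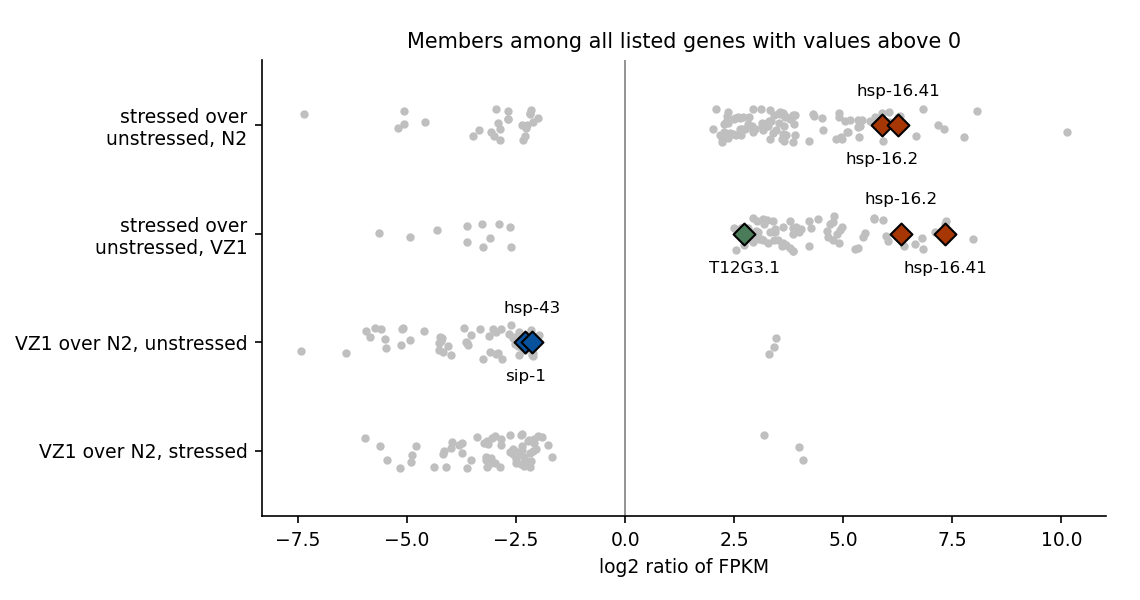
Log2 ratio of FPKM for every listed row with values above 0 in each of the 4 tables (grey points, spread vertically for visibility), with the members as labelled diamonds. hsp-16.41 and hsp-16.2 lie in the upper part of both stress tables, T12G3.1 near the lower end of the rises in VZ1, sip-1 and hsp-43 near the small end of the strain differences, and no member appears between the stressed strains.

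Lists of other genes of protein quality control were also looked up. Of 17 small heat shock protein genes, the 6 above included, the remaining 11 appeared in no table under their names, among them hsp-12.6, hsp-17, hsp-25 and the hsp-16-related genes F08H9.3 and F08H9.4. They also include hsp-16.1 and hsp-16.48, whose lengths and spacing equal those of the rows labelled hsp-16.11 and hsp-16.49. The shares that the tables list correspond to 0.074 to 0.178 of 17 genes per table, so these absences are not a result about the 11. Of 32 genes of HSP70, HSP90 and HSP60 chaperones, their cochaperones and HSF-1 with its regulators, none was listed in any table. The heat-inducible HSP70 genes hsp-70 and F44E5.4 and the gene of HSF-1 itself are among these. Of 35 autophagy genes, T12G3.1 was the only one listed. Absent were the autophagosome marker lgg-1, the other p62-family genes sqst-2 to sqst-5 and hlh-30, a regulator of autophagy genes. The shares of all genes tested that the tables list, such as 1.05% for stress in N2 and 0.735% for stress in VZ1, correspond to 0.14 to 0.336 of the 32 chaperone genes and 0.153 to 0.367 of the 35 autophagy genes per table. Counts of 0 and 1 are near these values and are not a result about either list.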

How the data were processed

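The authors deposited 4 tables with FPKM values, 1 for each pair of libraries, with p-values and q-values of their test of the 2 libraries, per the file headers. TopHat, Bowtie2, Cufflinks and the build ce10 are named in the submitters' processing notes. Of versions, strandedness and annotation, the sources used here say nothing. The authors normalised each pair separately, and no read counts are in these tables, so the depth is unknown and no counting interval is given. The members and lists were chosen with earlier results of these data known.

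Rows were matched on gene name or locus ID. Ratios are log2 of stressed over unstressed or VZ1 over N2 FPKM without a pseudocount, and a ratio with a value of 0 was left out. The deposited log2 fold column, in which some cells hold spreadsheet error text, entered only as an alternative. The number of genes tested (14397, 14420, 14419 and 14358) was recovered as the q-value multiplied by the rank and divided by the p-value, a step tested on simulated data, and each table gave a single number throughout. Row starts in the files count from 0, since 15 of 359 single-gene rows have exactly the annotated length only on that reading and 0 on the other. Printed starts count from 1. The WBcel235 annotation gave strands, exons, lengths, order and the spacings and gaps between genes. Its coordinates were used only within that build and are not printed. No test was run, since each group has 1 library. The genes named are the 7 members, list members in a table, and the 3 genes nearest to each member by ratio. A few list members absent from every table were named after the values were seen. Python 3.11.15, pandas 2.3.3 and numpy 2.4.6 were used.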

Additional observations from a re-analysis of the deposited data

How the results depend on the processing

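All 21 alternative log2 ratios, made with 1 or 0.1 FPKM added or from the deposited fold column, kept their direction and lay within 1.5-fold of the ratios reported, and so did both differences between the strains' stress responses. The deposited fold column holds the same ratio as the one reported, so its closeness was fixed in advance. With 1 FPKM added the differences between the strains' responses were 1.03 for hsp-16.41 and 0.45 for hsp-16.2. The rows labelled hsp-16.11 and hsp-16.49 have no ratio without a pseudocount, and with one it follows the amount added, at log2 1.79 and 2.11 with 1 FPKM and 4.68 and 5.10 with 0.1 FPKM. Of the counts of members listed, 16 of 20 stayed within 1.5 times. Those between the stressed strains were 0 from the start and could not move, since the alternatives only remove rows. For stress in N2 the 4 members became 2 when at least 5 FPKM was required in the higher library, which removes hsp-16.11 and hsp-16.49, and also 2 when only the name column was matched. For stress in VZ1 the 3 became 1 by the name column alone, and between unstressed strains the 2 became 1 without rows that hold several genes, which removes hsp-43. No paired analysis was possible because each group has 1 library. The depth is unknown, so the counting error of the hsp-16 values below 10 FPKM cannot be given.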
